A study of Mus musculus with 6 samples.

Results

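The positions described here are the 23507 rows of chromosome 17 in a table of 567667 m6A positions, all rows of that chromosome being taken. Of these, 3804 rows (16.2%) had a mean of 10% m6A or more over the 6 samples, and the values below are for such rows unless stated. The same share was between 13.0% and 16.9% on the other 18 autosomes, with a median of 14.2%. Chromosome 17 was selected on measured values, because its difference between the knockout and wildtype samples stood below that of the other autosomes. All knockout minus wildtype values of its rows are therefore given as a description, with no test, and the same holds for its bins and shorter stretches.

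N6-methyladenosine (m6A) is the most common internal modification of mRNA. A methyltransferase complex built around METTL3 and METTL14 places it on the adenosine of the motif DRACH, often in the last exon near the stop codon, and reader proteins of the YTH family tie it to the stability and translation of the transcript. The methyl group comes from S-adenosylmethionine, which the methionine cycle remakes with one-carbon units, and MTHFD1L is a mitochondrial enzyme of one-carbon metabolism that yields formate.

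The 6 samples were primary cultures of HCICs, hepatocellular carcinoma-initiating cells from livers of male mice on a C57BL/6 background that received the carcinogen diethylnitrosamine as pups. The 3 samples labelled Mthfd1l wildtype (called MTH-WT in the study) came from single colonies infected with empty LentiCRISPRv2, which carries Cas9. The 3 samples labelled Mthfd1l knockout (MTH-D) came from single colonies infected with the same vector holding guides against Mthfd1l, so both groups share Cas9, lentiviral infection and puromycin selection. The HCIC lines came from control mice and from DKI mice, which carry a knock-in in both Mdm2 and Mdmx. Sample numbers are not tied to these lines in the labels. The study's methods state that single colonies were picked, without saying how many make up a line. A difference between colonies and an effect of the knockout therefore cannot be told apart within a pair, and p-values measure the spread between these samples. The study describes the knockout in the line it calls HCIC-2 as a small deletion only, and used its other lines from there on. For its m6A sequencing it names HCIC-1 and HCIC-3, each as paired MTH-WT and MTH-D cells, while the labels number 3 samples a group. The samples numbered 1 and 3 alone are given as an alternative for this reason. The targeted gene lies on another chromosome and its expression cannot be read from m6A fractions, so the knockout was not checked here.

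Nanopore direct RNA sequencing reads the RNA strand itself and calls modified adenosines from the current. A library took 1000 ng of total RNA and had a flow cell to itself, with a run time of at most 72 h, and all 6 are labelled as batch 1. The authors deposited fractions without read counts. Depth is therefore unknown, and errors are given only as the SD over samples. Positions are given in GRCm39, the build in the submitters' processing notes, and were not assigned to genes, exons or UTRs, since an annotation of GRCm39 was not used here.

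Chromosome 17 was less methylated in the knockout than in the wildtype samples in pairs 1 and 3 and more methylated in pair 2, where a pair is the wildtype and the knockout sample with the same number. Its mean m6A was 37.8%, 40.7% and 37.4% in wildtype samples 1, 2 and 3. In knockout samples 1, 2 and 3 it was 35.6%, 41.5% and 35.1%. Both samples numbered 2 were the highest of their group, and the groups overlapped. The group means were 38.6% ± 1.81 (SD, n = 3) in wildtype and 37.4% ± 3.55 (SD, n = 3) in knockout, a difference of -1.21 percentage points that was smaller than either SD. By pair, knockout minus wildtype was -2.17, 0.805 and -2.26 points. Over the samples numbered 1 and 3 alone the difference was -2.22 points. It depended on which library was left out: -0.171 points without wildtype sample 2, -1.83 without wildtype sample 3, -0.310 without knockout sample 1, -3.25 without knockout sample 2 and -0.0631 without knockout sample 3.

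The other 18 autosomes moved in the same directions but by less. Over their 75966 rows, mean m6A was 39.6% ± 2.57 (SD, n = 3) in wildtype and 38.8% ± 4.07 (SD, n = 3) in knockout samples, and the difference by pair was -1.42, 0.982 and -1.77 points, or -0.735 over all 6 samples. Chromosome 17 had the lowest difference of the 19 autosomes in each of the 3 pairs and over all 6 samples. Its distance from the next autosome was not alike in the pairs. In pair 1 the next was chromosome 9 at -1.66 points, and in pair 3 it was chromosome 12 at -2.07. In pair 2 the next was chromosome 10 at 0.812 points, close to the 0.805 of chromosome 17. Over all 6 samples the others ranged from -0.872 to -0.559 points, so that chromosome 17 lay outside their range.

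**Figure D1:**
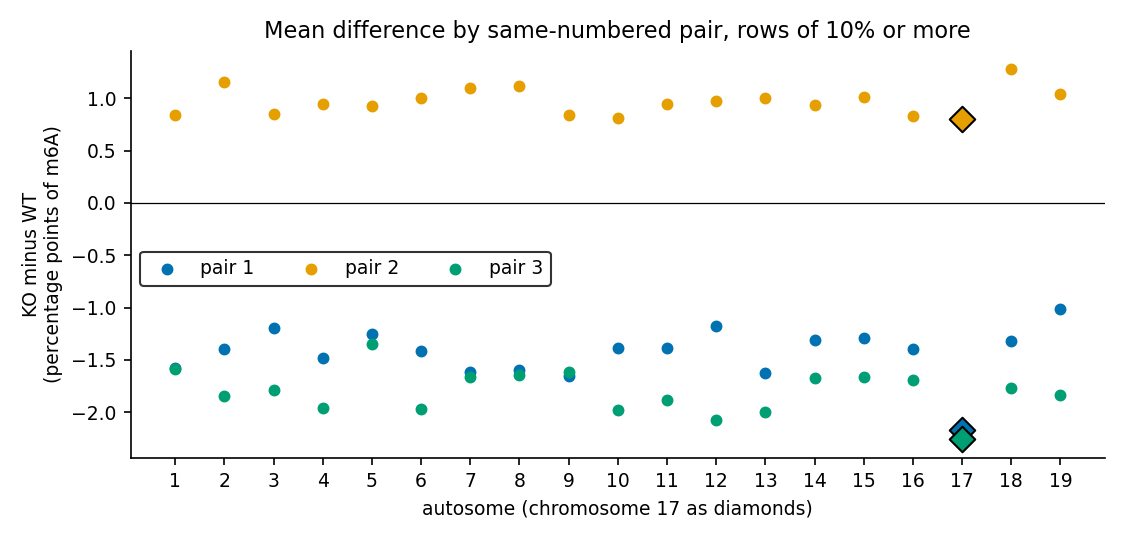
Knockout minus wildtype mean m6A (y axis, percentage points) for each of the 19 autosomes (x axis), with 1 point for each same-numbered pair and chromosome 17 as diamonds. Chromosome 17 lies at -2.17 in pair 1 and -2.26 in pair 3, below every other autosome, and at 0.805 in pair 2, beside chromosome 10 at 0.812.

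Relative to the other autosomes, the difference of chromosome 17 was -0.751 points in pair 1, -0.177 in pair 2 and -0.493 in pair 3, or -0.474 over all 6 samples. No other autosome stood further than 0.212 points from the rest, a distance reached by chromosome 5, which was higher. In each sample taken alone, chromosome 17 was also below the other autosomes, by -0.778, -1.82 and -0.306 points in wildtype samples 1, 2 and 3. In knockout samples 1, 2 and 3 the distance was -1.53, -1.997 and -0.799 points. The spread of these distances within a group (SD 0.775 in wildtype and 0.604 in knockout, n = 3 each) was larger than the -0.474 points between the groups, and the order of the samples was the same in both groups. Over the 3 paired values the SD was smaller, 0.287 points, which is a description of values that chose the chromosome. The value was -0.900 without wildtype sample 2, -0.143 without wildtype sample 3, -0.196 without knockout sample 2 and -0.795 without knockout sample 3, and it stayed below 0 without any 1 of the 6 libraries.

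The lower values were not limited to one level of methylation. Rows of chromosome 17 averaging 10% to 20% differed by -0.675 points and those of the other autosomes by -0.394. From 20% to 40% the values were -1.47 and -0.807, and from 40% to 60% they were -1.95 and -1.26. From 60% to 80% they were -1.62 and -1.15, and from 80% to 100% they were -0.782 and -0.459. Chromosome 17 was thus the lower in all 5 classes. Weighting the other autosomes to the m6A levels of chromosome 17 gave -0.477 points, near the -0.474 without weights. Below 10%, where 19703 of its rows lie, the difference was -0.00711 points on chromosome 17 and -0.00308 on the other autosomes.

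The filter at 10% sets which rows enter. The 3 rows just inside it had differences of -10.4, -6.93 and 2.66 points. The 3 rows just outside had differences of 2.35, -3.33 and 8.20. The 91 rows from 10% to 10.5% had a mean difference of -1.45 points and the 118 rows from 9.5% to 10% one of -0.363, both spread widely around 0.

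Split into bins of 1 Mb, chromosome 17 had 68 bins with at least 1 such row, and these contributed unequally to the distance from the other autosomes. The contribution of a bin is the sum, over its rows, of the row's difference minus the -0.735 points of the other autosomes. These contributions summed to -1803 (percentage points times rows). The 5 bins with the lowest contribution lay in 3 places, at 17 to 18 Mb, at 21 to 23 Mb and at 33 to 35 Mb. They held 728 rows, or 19.1% of the rows, and 77.8% of the net distance. Ranking bins by these same values favours a high share, and no like share is given here for the other autosomes. Whether chromosome 17 is more concentrated than they are cannot be read from it. That share rests on the size of the net distance: the 5 lowest bins ranked anew held 148.4% of it without wildtype sample 3, since the remaining bins then summed above 0, and 99.6% without knockout sample 2. Because bins above the other autosomes offset part of the bins below them, these 5 held a smaller share, 52.3%, of the summed contributions of the 42 bins that were below.

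**Figure D2:**
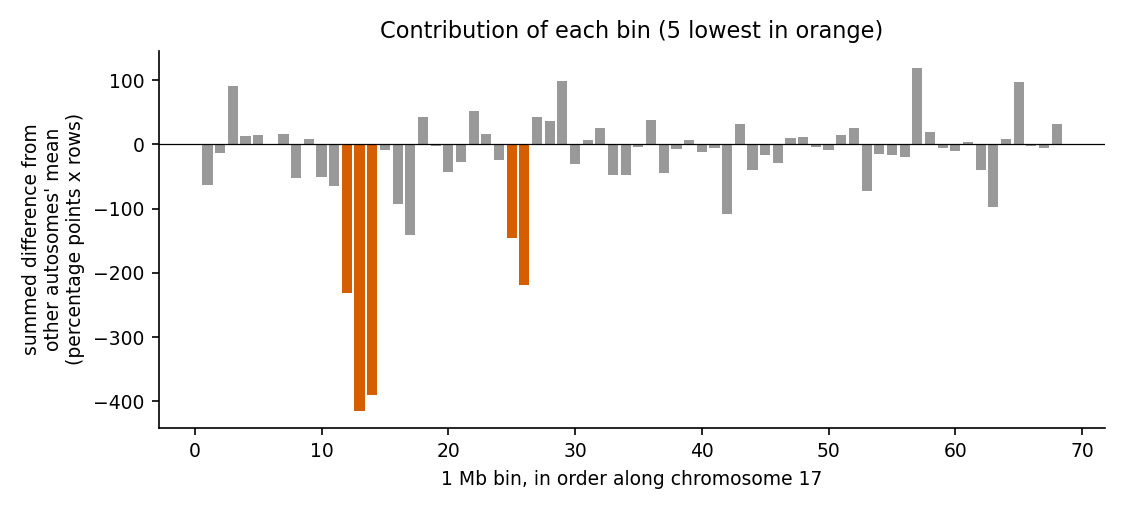
Summed difference from the other autosomes' mean (y axis, percentage points times rows) of each of the 68 bins of 1 Mb in their order along chromosome 17 (x axis), the 5 lowest in orange. Bins 12, 13 and 14 (17 to 18 Mb, 21 to 22 Mb and 22 to 23 Mb) and bins 25 and 26 (33 to 34 Mb and 34 to 35 Mb) reach furthest below 0, and most other bars lie on either side of 0.

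The bin at 21 to 22 Mb contributed most, 23% of the net distance from 225 rows. Its mean m6A was 38.0%, 39.6% and 38.9% in wildtype samples 1, 2 and 3. In knockout samples 1, 2 and 3 it was 35.7%, 38.3% and 34.7%. Each knockout sample was below its wildtype partner, by -2.30, -1.24 and -4.20 points, while knockout sample 2 still overlapped with wildtype sample 1. Over all samples the means were 38.8% ± 0.809 (SD, n = 3) and 36.2% ± 1.87 (SD, n = 3), a difference of -2.58 points.

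The neighbouring bin at 22 to 23 Mb had 129 rows and the lowest mean difference of the 5, -3.76 points. Its wildtype values were 36.3%, 32.7% and 39.0%, and its knockout values were 28.6%, 31.8% and 36.3%. The 3 pairs differed by -7.71, -0.883 and -2.69 points, so pair 1 carried most of the difference and the samples numbered 2 were nearly level. The bins at 21 and 22 Mb were the only ones of the 5 in which the knockout sample of pair 2 was below its partner. Without both bins the difference of chromosome 17 was -1.02 points, -0.289 from the other autosomes.

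The bin at 17 to 18 Mb had 95 rows and a difference of -3.18 points. Its wildtype values were 30.9%, 28.4% and 34.3% and its knockout values 24.5%, 29.6% and 30.0%, so the groups overlapped, and pair 2 was higher in the knockout by 1.26 points. At 34 to 35 Mb, with 148 rows and -2.21 points, wildtype samples had 42.9%, 45.2% and 40.2% and knockout samples 39.1%, 45.7% and 36.8%. At 33 to 34 Mb, with 131 rows and -1.85 points, they had 39.9%, 39.3% and 37.6% against 34.1%, 41.7% and 35.5%. In these 3 bins pairs 1 and 3 were lower and pair 2 was higher, which is the pattern of every autosome.

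**Figure D3:**
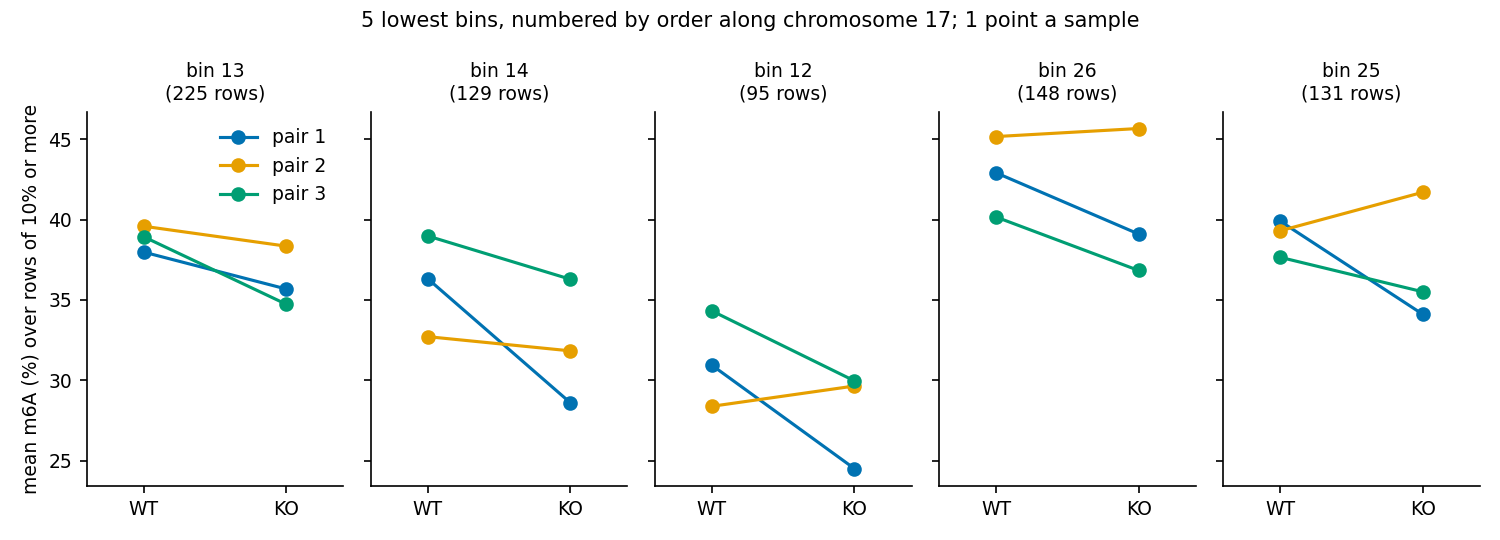
Mean m6A (y axis, percent, starting above 0) of each sample in the 5 lowest bins, labelled by their order along chromosome 17, with a line joining the wildtype and knockout sample of a pair. All lines of pairs 1 and 3 slope down, and those of pair 2 slope down only in bins 13 and 14, by -1.24 and -0.883 points.

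Over the 5 bins together the difference was -2.66 points, with -4.73 in pair 1, 0.158 in pair 2 and -3.40 in pair 3. Leaving them out brought chromosome 17 to -0.865 points, with -1.56, 0.958 and -1.99 by pair, against -1.42, 0.982 and -1.77 on the other autosomes. The 63 bins that remained thus stood -0.130 points from the other autosomes, and their -0.865 lay inside the range from -0.872 to -0.559 that those spanned. Since the bins were chosen for their low values, leaving them out had to raise the mean, and nothing was left out on the other autosomes. The place inside their range is therefore no sign that the remaining bins are like theirs. Leaving out the 5 highest bins too gave -1.04, which lay below that range. The 5 highest bins were those at 80 to 81, 37 to 38, 88 to 89, 6 to 7 and 30 to 31 Mb, with 287 rows and differences from 0.378 to 1.63 points.

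The mean of the other autosomes was reached only after 9 bins, with 31.3% of the rows, had been left out, lowest first. The 4 bins that followed the 5 lowest were at 25 to 26, 56 to 57, 86 to 87 and 24 to 25 Mb. On each of the other 18 autosomes the same procedure, starting from the bins furthest on the chromosome's own side, took 1 to 12 bins with a median of 2. The distance to be removed there was smaller, with a median size of 0.0631 points beside -0.474 on chromosome 17. These counts are therefore not directly comparable. The count on chromosome 17 was 13 of 112 with bins of 0.5 Mb, 8 of 42 with bins of 2 Mb and 9 of 73 with bins shifted by 0.5 Mb. It was 3 without wildtype sample 3 and 6 without knockout sample 2, where the distance to be removed was itself smaller, and the 5 lowest bins then shared 3 with those over all 6 samples.

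**Figure D4:**
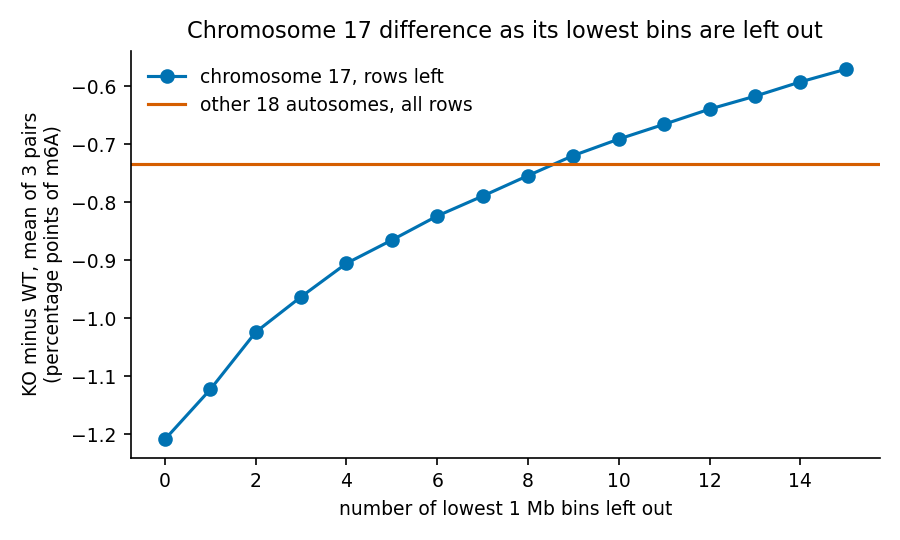
Knockout minus wildtype m6A of the chromosome 17 rows that remain (y axis, percentage points, mean of 3 pairs) as its lowest 1 Mb bins are left out one by one (x axis), with the mean of the other 18 autosomes as a line. The curve starts at -1.21, is at -0.865 after 5 bins and crosses the line at -0.735 once 9 bins are out.

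Outside the leading 5, the share of bins lower in the knockout was near that of all autosomes in each pair taken alone. The share lower in all 3 pairs at once was not. Of the other 55 bins with 10 rows or more, 45 (81.8%) were lower in pair 1, 18 (32.7%) in pair 2, 50 (90.9%) in pair 3 and 45 (81.8%) over all 6 samples. Over the bins of all 19 autosomes the shares were 81.7%, 26.6%, 85.2% and 78.1%. With the leading 5 included, bins lower in all 3 pairs numbered 18 of 60 (30.0%) on chromosome 17. On the other autosomes they numbered 240 of 1389 (17.3%), and the share over all 19 was 17.8%. Without the 5 they numbered 16 of 55 (29.1%) on chromosome 17. Bins higher in all 3 pairs numbered 3 (5%), at 8, 37 and 80 Mb, against 3.45% over all 19 autosomes. The bins of chromosome 17 also spread more widely, with an SD of 1.51 points over its bins where the others had 0.883 to 1.37. Of bins with 50 rows or more, 4 of 28 (14.3%) were at -2 points or lower on chromosome 17, and 21 of 549 (3.83%) on the other autosomes. Among those 549, 1 was lower than the bin at 22 to 23 Mb, 1 lower than that at 17 to 18 Mb and 5 lower than that at 21 to 22 Mb. The limits of 50 rows and -2 points were chosen after the values were seen. Because the chromosome was chosen on this contrast, nothing is read from these shares or from the spread of its bins.

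The bins were also compared between pairs. All 3 pairs entered the choice of the chromosome, so their likeness is a description and no independent support. Over the 60 bins, Pearson's r between the differences was 0.305 for pairs 1 and 2, 0.368 for pairs 1 and 3 and 0.308 for pairs 2 and 3. Spearman's rho was 0.220, 0.411 and 0.284. On the other 18 autosomes r ranged from -0.389 to 0.175 for pairs 1 and 2, from -0.150 to 0.425 for pairs 1 and 3 and from -0.295 to 0.129 for pairs 2 and 3. In the same order, rho there ranged from -0.360 to 0.195, from -0.0148 to 0.408 and from -0.218 to 0.219. The coefficients are descriptions without a p, since neighbouring bins can hold the same transcripts and all bins share the 6 libraries.

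When the 5 lowest bins were chosen in pair 1 alone, at 16, 17, 22, 74 and 86 Mb, they averaged -1.41 points in pair 2 and -4.00 in pair 3, where the median bin was at 0.933 and -2.58. The 5 highest of pair 1 averaged 0.793 and -0.202 in the same pairs. Bins lowest in pair 2, at 16, 51, 59, 63 and 86 Mb, averaged -4.24 points in pair 1 and -4.05 in pair 3. Those lowest in pair 3, at 3, 44, 53, 59 and 78 Mb, carried over least, with -1.51 in pair 1, beside a median of -1.53, and -0.0778 in pair 2. Over the 6 combinations of a pair that ranked the bins and another pair, the bins ranked lowest minus those ranked highest gave gaps from -3.80 to -1.52 points, with a mean of -2.43. Bins at 16 and 86 Mb, low in both pair 1 and pair 2, had only 16 and 17 rows. The bin at 86 to 87 Mb had wildtype values of 46.2%, 54.3% and 45.8% and knockout values of 36.6%, 49.0% and 41.1%, with differences of -9.64, -5.26 and -4.66 points.

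**Figure D5:**
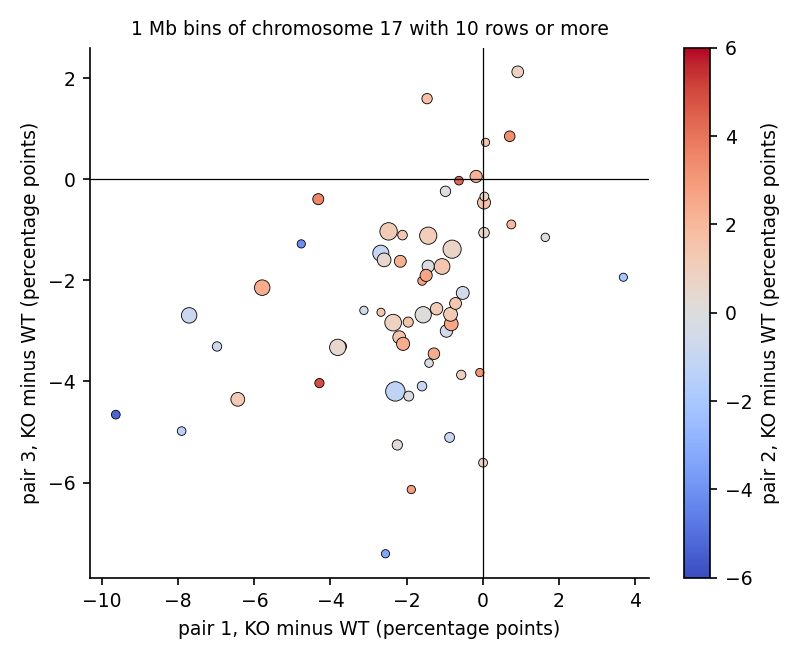
Knockout minus wildtype m6A of pair 1 (x axis) and pair 3 (y axis), in percentage points, for the 60 bins of 1 Mb with 10 rows or more on chromosome 17, coloured by pair 2, with larger points for bins with more rows. Most bins lie in the lower left, below 0 in both pairs, r is 0.368, and the bin furthest left (86 to 87 Mb, at -9.64 and -4.66) is also the lowest of pair 2 at -5.26.

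Inside the leading bins the difference lay in several short stretches of unequal weight. Listed rows no more than 200 bases apart were joined into runs, of which 266 on chromosome 17 held 5 rows or more of 10% m6A. Of the 50 such runs in the 5 lowest bins, 41 (82.0%) were below the mean of the other autosomes, and of the 216 in its other bins, 119 (55.1%) were. This contrast follows in part from choosing the bins by the same values, and no like share is given here for the runs of the other autosomes. At 21 to 22 Mb 10 of 12 runs were below, and at 22 to 23 Mb 9 of 9. At 17 to 18 Mb 4 of 6 were below, at 34 to 35 Mb 9 of 12 and at 33 to 34 Mb 9 of 11. No run alone made a bin low, although single runs weighed heavily in some. The lowest run held 54.2% of the contribution of the bin at 17 to 18 Mb and 45.5% of that at 33 to 34 Mb. In the bins at 21, 22 and 34 Mb it held 18.9%, 26.8% and 24.0%. Leaving out its lowest run, the bin at 17 to 18 Mb moved from -3.18 to -2.32 points, that at 33 to 34 Mb from -1.85 to -1.37 and that at 21 to 22 Mb only from -2.58 to -2.39.

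The run that contributed most, chr17:17424698-17426479, held 28 rows over 1782 bases. Its wildtype values were 29.5%, 31.3% and 33.4% and its knockout values 24.0%, 29.0% and 25.5%, all below the wildtype samples, a difference of -5.22 points. Within the bin at 21 to 22 Mb the lowest run was chr17:21245859-21249079, with 22 rows over 3221 bases, at 38.9%, 42.8% and 42.6% in wildtype against 35.9%, 38.6% and 36.9% in knockout. Its groups did not overlap either, and the pairs differed by -3.03, -4.21 and -5.68 points.

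In the bin at 22 to 23 Mb the lowest run, chr17:22594304-22596238 with 10 rows, varied far more between samples. Its wildtype values were 44.2%, 26.7% and 55.2% and its knockout values 29.5%, 25.3% and 37.6%, with pairs at -14.7, -1.40 and -17.6 points. The same bin also held chr17:22145968-22148396, with 16 rows, at 34.3%, 33.5% and 33.2% in wildtype and 24.4%, 32.0% and 30.7% in knockout. At 33 to 34 Mb the lowest run, chr17:33037149-33037999 with 6 rows, had 58.8%, 60.3% and 54.7% in wildtype and 45.6%, 50.8% and 42.1% in knockout. All 3 pairs of that run were lower, by -13.3, -9.59 and -12.5 points, and its groups did not overlap. Outside the leading bins, the lowest run was chr17:56204214-56205919, with 9 rows, at 47.6%, 44.8% and 40.2% against 29.8%, 38.9% and 34.7%.

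Runs in the other direction were present in the same region. Within the bin at 21 to 22 Mb, chr17:21910184-21911204, with 12 rows, was at 44.3%, 45.7% and 44.9% in wildtype and at 47.0%, 52.9% and 43.4% in knockout, so pairs 1 and 2 were higher and pair 3 lower.

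Across chromosome 17, the knockout values lay wholly below the wildtype values in 10 of the 266 runs (3.76%), 7 of them in the 5 lowest bins, and wholly above in 0. Over all 19 autosomes the shares were 1.4% below and 0.451% above. The other 18 autosomes had 71 and 26 such runs of 5502.

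Counted row by row, chromosome 17 had 641 of 3804 rows (16.9%) lower in all 3 pairs, where 16.4% of the rows of all 19 autosomes were, and 313 (8.23%) higher in all 3 pairs, where 9.09% were. In the 5 lowest bins the shares were 21.8% lower and 4.53% higher. Knockout values wholly below the wildtype values were seen in 179 rows (4.71%) against 3.37% over all 19 autosomes, and in 59 of the 728 rows (8.1%) of the 5 lowest bins. Values wholly above were seen in 82 rows (2.16%) against 2.07%. Because the chromosome was chosen on this contrast, nothing is read from these counts.

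Single positions of the leading bins showed the sizes behind these means. For each bin, the printed position was chosen by the size of its difference among rows of one sign in all 3 pairs. At chr17:33037808, in the lowest run of its bin, wildtype samples had 64.7%, 77.3% and 66.7% and knockout samples 27.3%, 46.2% and 33.3%, a difference of -34.0 points with no overlap. At chr17:21247776 wildtype samples had 68.2%, 52.6% and 61.5% and knockout samples 38.7%, 46.7% and 36.8%, also with no overlap. The remaining 3 of the 5 lowest bins had positions whose groups overlapped. At chr17:22418651 wildtype samples ranged from 46.8% to 93.6% and knockout samples from 24.3% to 50%. At chr17:17539422 the values were 35.7%, 39.1% and 37.5% against 12%, 36.8% and 18.2%, and at chr17:34406900 they were 90.2%, 75% and 68.97% against 64.7%, 73.7% and 48.8%. In both, the sample numbered 2 differed least.

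Positions with higher m6A in the knockout were chosen in the 5 highest bins by the same rule. At chr17:30438522 wildtype samples had 59.1%, 63.9% and 66.7% and knockout samples 69.8%, 75.4% and 79.0%. At chr17:6282234 they had 62.8%, 57.9% and 58.3% against 81.8%, 76.7% and 66.3%, a difference of 15.3 points. The groups did not overlap at either position, nor at chr17:37168685 and chr17:88942686, where the differences were 9.45 and 10.3 points. At chr17:80582773 they overlapped.

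No position of chromosome 17 passed limma's moderated test on the log2 odds of the percent, fitted over all 567667 rows, with p-values adjusted by Benjamini-Hochberg and a threshold of 0.05. The count was 0 of 23507 on chromosome 17 and 0 (0%) in the whole table, and the lowest adjusted p on chromosome 17 was 0.117. At an unadjusted p under 0.05, limma gave 861 of its rows, 397 lower and 464 higher in the knockout, where 1.55% of all rows were lower and 1.67% higher. Fitted on rows of 10% m6A or more alone, limma gave the other balance, 99 lower and 36 higher of 3804, where 1.54% of the 81446 such rows of the table were lower and 0.933% higher. This split belongs to the contrast that chose the chromosome, and nothing is read from it. Of the 10 positions named above, chr17:33037808 had the lowest adjusted p by limma, 0.502, with a log2 odds difference of -2.05 ± 0.413 (SE), and the others had 0.939.

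The 5 lowest bins had 95 to 225 rows at 10% m6A or more, against a median of 38 in the other ranked bins of chromosome 17. The ranking favours such bins because a contribution is a sum over such rows. In the 5 lowest bins the share of listed rows at 10% m6A or more was also high. A higher share puts more rows into that sum for the same number of listed rows, so the ranking favours it too. It was 31.4% at 21 to 22 Mb, 21.8% at 22 to 23 Mb, 26.0% at 17 to 18 Mb, 16.6% at 34 to 35 Mb and 26.1% at 33 to 34 Mb. All were above the median of 15.4% in the other bins of chromosome 17 and of 14.5% on the other autosomes, that at 34 to 35 Mb only slightly. The 7 bins of chromosome 17 with a share over 25% had a median difference of -1.85 points. Its bins of lower share showed no steady order, with medians of -1.62 points up to 10%, -0.356 from 10% to 15%, -1.04 from 15% to 20% and -1.15 from 20% to 25%. On the other autosomes the 121 bins over 25% had a median of -1.14 and the classes of lower share had medians between -0.723 and -0.689. Other features were not common to the 5 bins. Runs were long in 3 of them, with a median length of 2166, 2429 and 1763 bases at 21, 22 and 17 Mb against 1066 bases in the other bins of chromosome 17. At 34 and 33 Mb the median was 658 and 1044 bases, below that of the other bins.

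The leading bins also differed among themselves in how much replicates varied. The median SD within a group was 7.87, 8.81 and 8.30 points in the bins at 22, 17 and 33 Mb and 5.53 and 5.50 in those at 21 and 34 Mb, against 6.14 in the other bins of chromosome 17. At 17, 33 and 21 Mb, 21.1%, 16.03% and 11.6% of rows had a value of exactly 0% or 100% in some sample, where the median of the other bins was 5.13%. At 22 and 34 Mb it was 3.10% and 3.38%. The part of these features in the difference was not tested, and rows with no value of 0% or 100% put chromosome 17 at -0.463 points from the other autosomes. Rows under 10% m6A, which belong to the same contrast but were not used in choosing the bins, differed by -0.0957 points in the 5 lowest bins and by 0.00482 in the other bins of chromosome 17. The 5 bins were not alike in this: the difference was -0.185 points at 21 Mb, -0.260 at 22 Mb and -0.166 at 17 Mb, but 0.0126 at 34 Mb and 0.0626 at 33 Mb. In pair 2 such rows were higher in the knockout by 0.188 points in the 5 bins and by 0.137 in the other bins.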

How the data were processed

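The table analysed here came from nanopore direct RNA sequencing (SQK-RNA004, PromethION) of 3 wildtype and 3 knockout samples. The authors deposited m6A as a fraction from 0 to 1 with 4 decimals, 1 column a sample, without coverage. The submitters' processing notes name minimap2 2.26, SAMtools and GRCm39. The basecaller, modification model and coverage filter are not given in the sources used here. Depth is therefore unknown, and precision is shown only by the spread of 3 samples a group.

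Fractions were converted to percent in Python 3.11.15 (pandas 2.3.3, numpy 2.4.6). Rows averaging 10% or more over the 6 samples were averaged by sample, chromosome and 1 Mb bin, with 10 rows needed to rank a bin. Chromosome 17 and the lists, bins and positions were chosen with earlier results of these data known. Positions are counted from 0 in the table, as judged from the first 59 Mb of chromosome 4, where 93.8% of rows fell on an exonic DRACH adenosine in GRCm38 when counted from 0 and 0.875% when counted from 1. On chromosome 17 only 0.217% did, so GRCm38 annotation was not used, no position was converted, and printed positions are counted from 1. The planned gene lists and naming of genes need an annotation of GRCm39 and are not analysed here, and no sequence is printed.

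Each row was tested by limma 3.58.1 (R 4.3.3) on log2((percent + 1)/(101 - percent)) over all rows, checked on simulated data. Positions were named by a rule: in each of the 5 bins with the lowest and the 5 with the highest contribution, the row with the largest difference among rows of that sign in all 3 pairs. Runs join listed rows at most 200 bases apart. Same-numbered samples deviated together from their group means (correlation 0.164, 0.223 and 0.133 over 81446 rows of 10% or more, and 0.159, 0.290 and 0.162 on chromosome 17), and the study calls the cells paired, so the numbers were taken as pairs. Alternatives were leaving out samples, other row filters and bins, medians, log2 odds, a replicate block and other limma settings. Leaving out low bins and joining rows into runs were chosen after seeing the data.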

Additional observations from a re-analysis of the deposited data

How the results depend on the processing

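The difference of chromosome 17 and its distance from the other autosomes stayed below 0 under every alternative run. Without 1 sample, the difference ranged from -3.25 to -0.0631 points and the distance from -0.900 to -0.143, and the number of bins to leave out from 3 to 13. With no row filter the distance was -0.0930 points, since most listed rows are near 0%, and without the 5 lowest bins, an alternative chosen after seeing the data, it was -0.130. With rows of 5% or 20% and more the distance was -0.365 and -0.585, over the medians of rows -0.475, with every bin weighing the same -0.472 and on the log2 odds scale -0.0432. As averages of the 3 paired differences, the values with the replicate block were the same, -1.21 and -0.474 points. With the replicate block limma called 0 positions at an adjusted p under 0.05, as without it, with a lowest adjusted p of 0.874 there, and gave 836 rows of chromosome 17 at an unadjusted p under 0.05. The other limma settings run also called 0, with a lowest adjusted p on chromosome 17 between 0.0637 and 0.576 and 135 to 1772 of its rows at an unadjusted p under 0.05. The mean gap between bins chosen as lowest and as highest was -1.77 points with at least 20 rows a bin, -2.47 with 3 bins and -2.06 with 10 bins each way. The planned gene lists were not run. Unknown depth limits every single position, and 3 samples a group limit the means. Within-group SDs are larger than the difference itself, and colony, line and knockout cannot be told apart.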
